A study of Homo sapiens with 29 samples.

Results

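Histone H2B is one of the 4 core histones, pairs with H2A inside the nucleosome and is encoded by many near-identical genes that lie in clusters. Most clustered histone genes are transcribed during S phase into mRNAs that end in a stem-loop without a poly(A) tail, and several clustered H2B genes can also give polyadenylated mRNAs. The labelling kit named in the methods is of a kind that primes on poly(A) tails, but these arrays do not separate polyadenylated from stem-loop mRNA, and neither form was measured on its own. The genes studied were 9 clustered H2B genes, H2BC4, H2BC5, H2BC6, H2BC7, H2BC8, H2BC9, H2BC11, H2BC12 and H2BC13 (HIST1H2BC, HIST1H2BD, HIST1H2BE, HIST1H2BF, HIST1H2BG, HIST1H2BH, HIST1H2BJ, HIST1H2BK and HIST1H2BL in older names), out of 22439 genes that a probe named. The list was chosen by measured values, the log2 signals of the H2B genes in all 10 groups, which as a family did not fall with S phase genes, so the comparisons of ZNF148 siRNA with nontargeting siRNA are given as descriptions without a test. The 9 genes had 10 probes, of which H2BC12 had 2, and, among the 38714 tested probes, 8 genes had a probe that was well above background on at least 2 arrays. The description did not hold for all 9: H2BC6 was lower with ZNF148 siRNA at 48 and 96 h in growth media, H2BC7 was near background, and without ZNF148 siRNA the measured members fell in differentiation media, as S phase genes did, with the exception of H2BC12 at 48 h.

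The cells were LHCN-M2, a line of human myoblasts immortalized by telomerase and CDK4, transfected with 20 nM ZNF148 siRNA or 20 nM nontargeting siRNA. CDK4 drives the G1 to S phase transition, and every group carried this transgene. There were 29 arrays in 10 groups. Both siRNAs were measured at 24 h in subconfluent growth media, at 48 and 96 h in confluent growth media, and at 48 and 96 h in confluent differentiation media. Each group had 3 arrays, labelled as biological replicates, except the 96 h growth media group of nontargeting siRNA with its 2 arrays. The paper counts hours of knockdown for cells in growth media, and its methods put the switch to differentiation media after transfection. The methods do not state where the clock started for the arrays in differentiation media, so equal hours may not be equal times since transfection. In such cultures fewer cells of a type and less RNA per cell cannot be told apart.

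ZNF148, the zinc finger factor targeted, was lower with its siRNA by 1.53 to 2.74 on the log2 scale in the 5 comparisons, with no overlap of arrays. The myoblast genes MYOD1, MYF5, DES, CDH15, NCAM1 and ITGA7 were well above background on all 29 arrays and the satellite cell factor PAX7 on 20. Of 12 markers of other cell types, 3 to 10 were well above background on an array, from the fat droplet gene PLIN1 on 0 arrays and the epithelial gene EPCAM on 2 to the leukocyte gene PTPRC and the endothelial gene PECAM1 on 26. The endothelial gene CDH5 and the keratin genes KRT8 and KRT18 were well above background on all 29 arrays. The array of replicate 1 of nontargeting siRNA in growth media at 48 h, stood apart: the median log2 signal of 12 differentiated muscle genes was 14.61 on this array against 6.75 and 7.03 on the other arrays of its group. Differences of the members that rest on this array are also given without it, while gene lists and neighbours are given with it.

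Transcription of H2B genes is known to use an octamer element, bound by POU factors such as POU2F1 (Oct-1), together with CCAAT and TATA elements. To show what the members share and where they part, 130 bases that precede the transcript start are printed for 6 members, from RefSeq on GRCh38.p14, 5′ to 3′ on the strand of the gene, with capitals for exact matches, on either strand, to the octamer ATTTGCAT, to the box of letters CCAAT and to the TATA box letters TATAAA. They are H2BC4, H2BC5 and H2BC12, whose genes were the longest, H2BC11 and H2BC13, short genes with clear signals in every group, and H2BC6, the member that was lower with ZNF148 siRNA in growth media.
H2BC4 (chr6:26123927-26124056, minus strand): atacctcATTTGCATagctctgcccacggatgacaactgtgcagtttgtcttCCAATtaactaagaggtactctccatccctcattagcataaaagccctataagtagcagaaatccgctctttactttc
H2BC5 (chr6:26157991-26158120, plus strand): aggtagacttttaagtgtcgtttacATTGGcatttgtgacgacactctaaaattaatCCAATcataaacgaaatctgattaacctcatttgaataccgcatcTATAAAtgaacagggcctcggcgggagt
H2BC6 (chr6:26183631-26183760, plus strand): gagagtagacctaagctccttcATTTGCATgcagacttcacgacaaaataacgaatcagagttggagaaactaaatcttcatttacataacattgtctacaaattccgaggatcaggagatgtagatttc
H2BC11 (chr6:27132796-27132925, minus strand): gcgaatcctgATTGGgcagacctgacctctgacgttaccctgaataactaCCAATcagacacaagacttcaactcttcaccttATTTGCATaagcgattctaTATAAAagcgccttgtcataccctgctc
H2BC12 (chr6:27146859-27146988, minus strand): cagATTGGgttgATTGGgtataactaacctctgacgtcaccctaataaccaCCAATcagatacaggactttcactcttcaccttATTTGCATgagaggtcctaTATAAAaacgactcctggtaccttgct
H2BC13 (chr6:27807930-27808059, minus strand): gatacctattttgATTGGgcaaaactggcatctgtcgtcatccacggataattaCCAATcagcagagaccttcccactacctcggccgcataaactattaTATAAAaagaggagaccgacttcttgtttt

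All 9 members matched a promoter in the table. In the 250 bases before the start, 7 of 9 held the octamer, against 1.66% of the promoters of all 27305 genes. The share among other histone genes was not counted. H2BC6, which was lower with ZNF148 siRNA at 48 and 96 h in growth media, held the octamer too. In the pairs with an H2A gene given below, an octamer between the 2 starts lies before both genes. The letters CCAAT stood in all 9 members against 33% of all promoters, and TATAAA in 7 of 9 against 11.1%. TATAAA lay on the strand of the gene 21 to 26 bases from the start in H2BC5, H2BC8, H2BC11, H2BC12 and H2BC13. The only match in H2BC4 was on the other strand, 214 bases from the start, and that in H2BC6 lay 183 bases away. The octamer lay 38 to 41 bases from the start in H2BC8, H2BC9, H2BC11 and H2BC12, and 100 to 115 bases from it in H2BC4, H2BC6 and H2BC7. H2BC5 and H2BC13 had no exact octamer in these letters. The nearest letters in H2BC5 were ATTTGAAT, 36 bases from the start. A match is a description of letters and does not show that a factor binds there. POU2F1 itself was higher with ZNF148 siRNA in growth media, by 0.52 at 24 h, 0.78 at 48 h and 0.59 at 96 h on the log2 scale, and differed by 0.09 and 0.04 with overlapping arrays in differentiation media.

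Of the 9 members, 7 gave a clear signal in every group. H2BC4, H2BC5, H2BC8, H2BC9, H2BC11, H2BC12 and H2BC13 were well above background on all 29 arrays. H2BC6 was well above background on 20 arrays. H2BC7 was well above background on 1 of 29 arrays, ZNF148 siRNA replicate 2 at 48 h in differentiation media, and was not tested. No difference is given for H2BC7. H2B coding sequences are so alike that a probe may also take up RNA of another member, and the probe sequences were not used here, so the members may not be independent measurements.

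**Figure D1:**
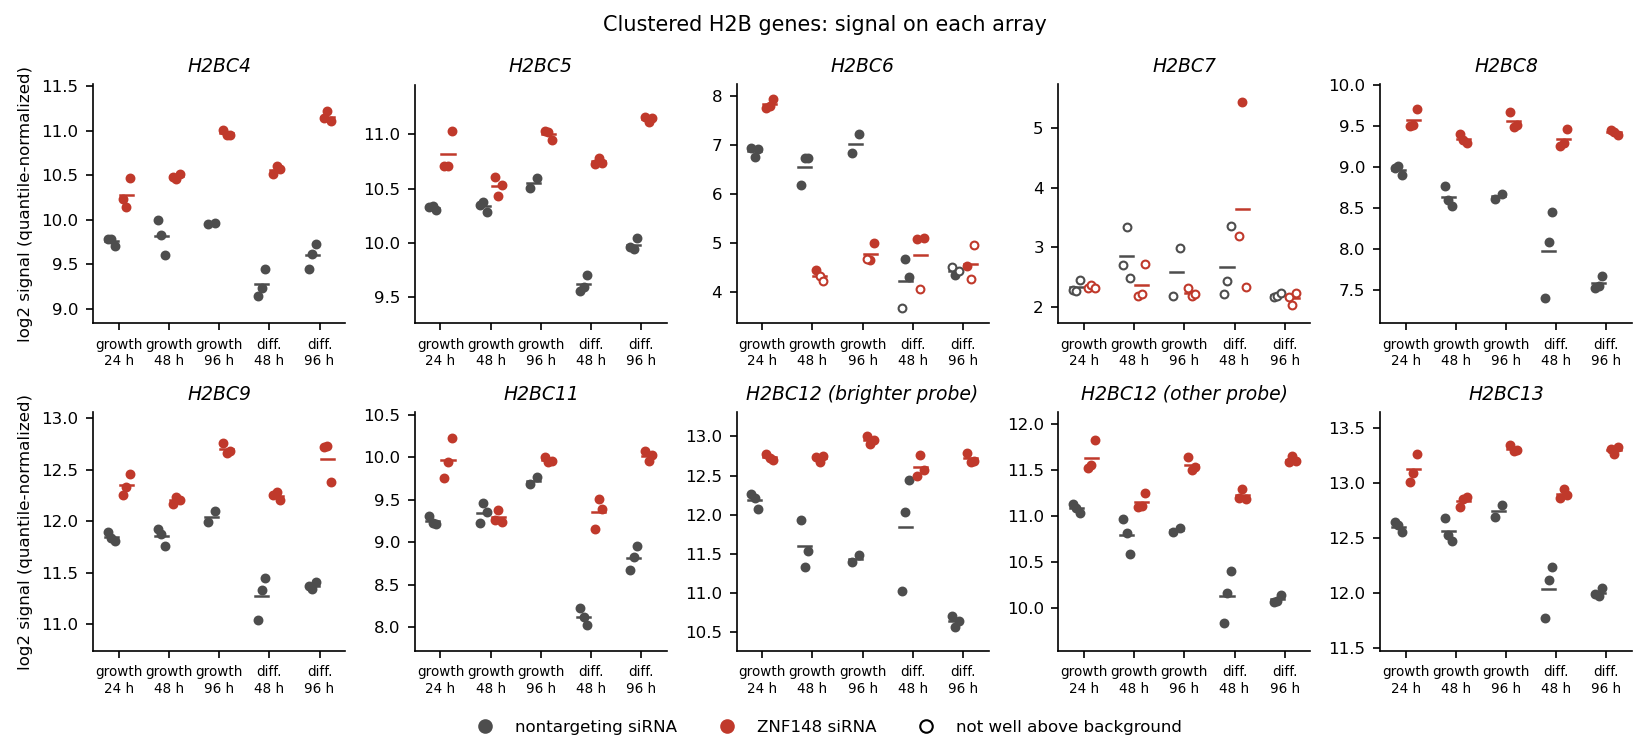
Log2 signal of each of the 10 probes on each of the 29 arrays (vertical axis, its own range in each panel), by media and hour, for nontargeting siRNA (grey) and ZNF148 siRNA (red). Bars are group means, and open points were not well above background. The 7 clear members were lowest with nontargeting siRNA in differentiation media, apart from the brighter probe of H2BC12 at 48 h, whereas H2BC6 stood above 6 only on the arrays of growth media other than ZNF148 siRNA at 48 and 96 h.

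After 24 h in growth media all 8 measured members were higher with ZNF148 siRNA, by 0.50 to 0.95 on the log2 scale, with a median of 0.54. Of the 18398 genes tested 9175 stood above their controls. The arrays did not overlap in any of the 8. How many of all genes had no overlap at any size of difference was not counted, so this is only a description. H2BC6 had the largest difference and read 6.95, 6.77 and 6.93 with nontargeting siRNA and 7.76, 7.81 and 7.94 with ZNF148 siRNA. H2BC11 read 9.31, 9.22 and 9.21 with nontargeting siRNA and 9.75, 9.94 and 10.23 with ZNF148 siRNA. None of the 8 passed 2-fold, where 2.93% of the 18398 genes with a tested probe were over 2-fold higher and 3.32% lower without overlap. S phase genes were also higher at this hour, with a median of 0.73 over 51 genes, as were clustered H2A (0.84, 12 genes), H3 (1.1, 10 genes) and H4 (0.80, 11 genes). At 24 h the members thus stood on the same side as the S phase genes and the other core histones. The median of all genes tested was 0.

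At 48 h in growth media the members parted from the S phase genes, and they also parted from each other. The median difference was 0.31 for the 8 members and -2.12 for the S phase genes, of which 43 of 51 were over 2-fold lower without overlap. H2BC12 was the only member over 2-fold higher, and H2BC6 the only one over 2-fold lower, where 11.8% of all genes tested were higher and 12.4% lower by this rule. On its brighter probe H2BC12 read 11.93, 11.33 and 11.53 with nontargeting siRNA and 12.74, 12.68 and 12.75 with ZNF148 siRNA, a difference of 1.13. Its other probe differed by only 0.36, from 10.97, 10.81 and 10.59 to 11.10, 11.11 and 11.25. The arrays of the 2 groups were apart on both probes, but the sizes were not the same.

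H2BC6 took the opposite course. It read 6.19, 6.74 and 6.73 with nontargeting siRNA and 4.46, 4.33 and 4.23 with ZNF148 siRNA at 48 h, a difference of -2.21, and 1 of the 3 ZNF148 siRNA arrays was well above background. The listing of H2BC6 as a gene that did not fall with S phase genes was therefore not borne out in growth media. H2BC11 (-0.05), H2BC5 (0.19), H2BC13 (0.28) and H2BC9 (0.35) stood close to their controls, and H2BC4 (0.67) and H2BC8 (0.71) lay between these and H2BC12. With normexp background correction and an offset of 50, 0 members were over 2-fold lower at 48 h, H2BC6 included. Of these, H2BC11 overlapped between the groups, with 9.23, 9.46 and 9.35 against 9.26, 9.38 and 9.24. Without nontargeting siRNA replicate 1, the values were 1.29 for H2BC12, -2.4 for H2BC6 and -0.11 for H2BC11, and the median of the 8 was 0.36.

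At 96 h in growth media the differences of most members were wider, with a median of 0.61 against -2.36 for the S phase genes. H2BC12, on its brighter probe, and H2BC4 were over 2-fold higher, where 13.2% of all genes tested were, and H2BC6 was over 2-fold lower, where 13% of all genes were. H2BC12 read 11.40 and 11.48 with nontargeting siRNA and 13.01, 12.91 and 12.96 with ZNF148 siRNA, a difference of 1.52. H2BC4 read 9.95 and 9.96 against 11.01, 10.95 and 10.95, a difference of 1.01. The values of H2BC4 and of the brighter probe of H2BC12 were close within each group and far apart between the groups. The other probe of H2BC12 had means of 10.84 with nontargeting siRNA and 11.56 with ZNF148 siRNA, under 2-fold but without overlap. H2BC6 read 6.84 and 7.23 against 4.68, 4.65 and 5.00, a difference of -2.26, with 2 of 3 ZNF148 siRNA arrays well above background. The difference of H2BC11 was 0.24 and those of the other 4 genes 0.45 to 0.92.

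In differentiation media the 7 clear members were higher with ZNF148 siRNA at 48 and 96 h. H2BC6 overlapped between the groups at both hours, with differences of 0.53 and 0.15. At 48 h the median was 1.05, and 4 of the 8 members, H2BC4, H2BC5, H2BC8 and H2BC11, were over 2-fold higher, where 15.4% of all genes tested were (17.5% were lower). H2BC11, which had not differed at 48 h in growth media, read 8.23, 8.12 and 8.02 with nontargeting siRNA and 9.15, 9.51 and 9.39 with ZNF148 siRNA, a difference of 1.23. H2BC8 read 7.40, 8.09 and 8.45 against 9.26, 9.30 and 9.47, a difference of 1.36, with a wide spread among the nontargeting arrays. H2BC9 (0.98) and H2BC13 (0.86) lay just inside 2-fold, and H2BC12 differed by 0.78 on its brighter probe and by 1.09 on the other. Within single slides the median of the 8 members was 1.26, 0.81 and 1.01.

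At 96 h in differentiation media the median was 1.27 and 7 of the 8 members were over 2-fold higher, where 10.8% of all genes tested were (12.8% were lower). H2BC12 had the largest difference, 2.08: its brighter probe read 10.71, 10.56 and 10.64 with nontargeting siRNA and 12.79, 12.68 and 12.69 with ZNF148 siRNA. Its other probe read 10.06, 10.07 and 10.14 against 11.59, 11.65 and 11.60, a difference of 1.52. H2BC8 read 7.53, 7.55 and 7.68 against 9.46, 9.43 and 9.40, a difference of 1.84. Both genes had little spread within the groups. H2BC4 (1.55), H2BC13 (1.3), H2BC9 (1.24), H2BC11 (1.2) and H2BC5 (1.16) followed. H2BC6 read 4.52, 4.35 and 4.43 against 4.53, 4.26 and 4.96, near background on both sides, with 1 of 3 arrays well above it in each group.

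**Figure D2:**
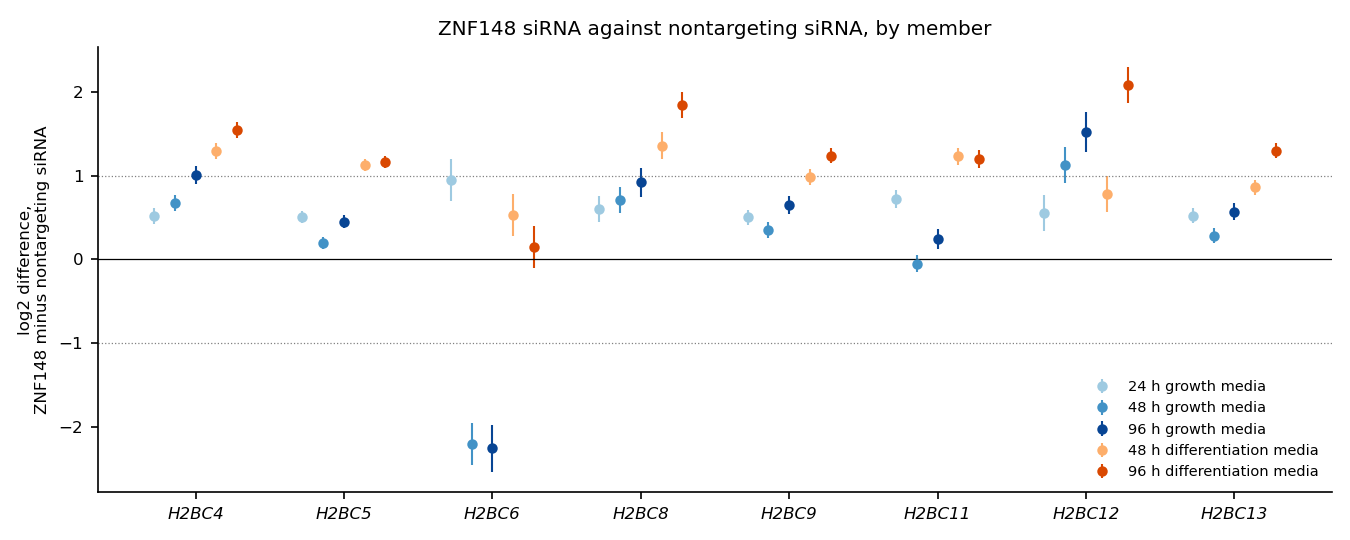
Log2 difference of ZNF148 siRNA minus nontargeting siRNA (vertical axis) for the 8 measured members in each of 5 conditions. Points are differences of group means, bars are standard errors from the fit, and dotted lines mark 2-fold. In differentiation media at 96 h 7 members lay above 1, and H2BC6 lay near -2 in growth media at 48 and 96 h.

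At 96 h in differentiation media the 3 longest member genes did not stand apart in these differences. H2BC4, H2BC5 and H2BC12 span 10757, 13229 and 8566 bases and have 2 RefSeq mRNAs each, while the other 6 members span 451 to 489 bases with 1 mRNA each. At 96 h in differentiation media the long genes differed by 1.55, 1.16 and 2.08. The short genes H2BC8, H2BC9, H2BC11 and H2BC13 differed by 1.84, 1.24, 1.2 and 1.3, and H2BC6, near background, by 0.15. The ranges overlapped. In growth media at 96 h the long genes differed by 1.01, 0.45 and 1.52. These short genes differed there by 0.92, 0.65, 0.24, 0.57 and -2.26. The ranges overlapped through H2BC5, but the members over 2-fold higher, H2BC4 and H2BC12 on its brighter probe, were both long. The part of gene length was not tested. The differentiated muscle genes moved with ZNF148 siRNA in the same comparisons: their median difference was 6.65 and 7.01 at 48 and 96 h in growth media and 6.61 and 3.35 in differentiation media. Of 12 such genes 4 to 12 were well above background on an array, and their median log2 signal per array was 15.92 to 17.38 with ZNF148 siRNA and 6.75 to 14.61 with nontargeting siRNA at 48 and 96 h. At 24 h their median difference was -0.05, that of the 8 members 0.54 and that of the S phase genes 0.73. The part of the muscle genes in the differences at 48 and 96 h was not tested.

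The other clustered H2B genes had medians close to those of the members. H2BC3, H2BC10, H2BC14, H2BC15 and H2BC17 were the clustered H2B genes outside the list with a tested probe, 5 of 6 with any probe. Their median differences were 0.58, 0.29 and 0.52 in growth media at 24, 48 and 96 h and 1.03 and 1.38 in differentiation media. H2BC14 differed by 0.65 at 48 h and 0.64 at 96 h in growth media, H2BC3 by 0.13 and -0.02 with overlapping arrays. At 96 h in differentiation media 4 of the 5 were over 2-fold higher, from 1.25 in H2BC17 to 1.69 in H2BC14, and H2BC15 differed by 0.94. The ranges of the 5 genes overlapped those of the members in each comparison.

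The other core histones of the cluster took another course in growth media. At 48 h, 11 of 12 clustered H2A genes, 7 of 10 H3 genes and 10 of 11 H4 genes were over 2-fold lower with ZNF148 siRNA, and their medians were -1.82, -1.99 and -1.53. At 96 h the medians were -1.8, -3.17 and -1.7. Linker histone H1 genes were mixed: H1-5 differed by -5.29 at 96 h in growth media and H1-2 by 1.17. In differentiation media the medians were -0.18 for H2A, -0.06 for H3 and -0.80 for H4 at 48 h, and 0.14, -0.86 and -0.65 at 96 h. Of 17 factors of histone mRNA synthesis and processing, 15 stood above their controls at 24 h with a median of 0.26, but only 1 of them was over 2-fold higher. At 96 h in growth media 5 of the 17 were over 2-fold lower, with a median of -0.4. These included NPAT, the coactivator of histone gene transcription, at -2.01, SLBP, the protein that binds the histone stem-loop, at -1.5, and ERI1, an exonuclease acting on histone mRNA ends, at -1.69. None of 15 genes of the poly(A) machinery was over 2-fold different in any of the 5 comparisons.

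**Figure D3:**
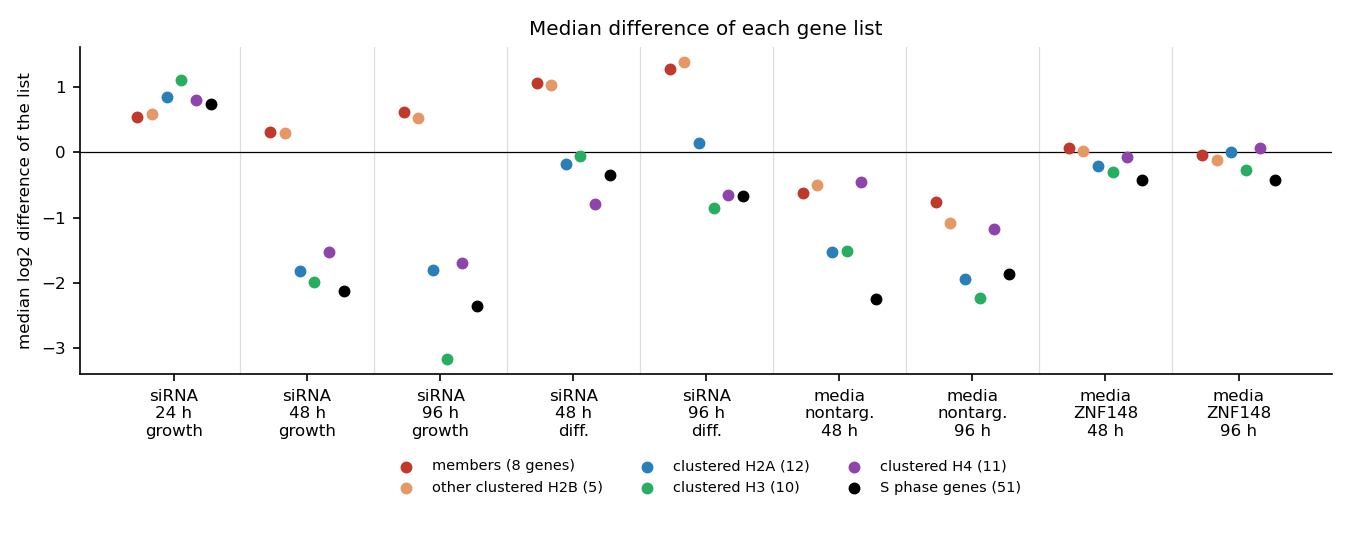
Median log2 difference (vertical axis) of the members and 5 other gene lists in each comparison, with the number of genes measured in brackets. Columns are ZNF148 siRNA minus nontargeting siRNA in 5 conditions, then differentiation minus growth media for each siRNA. In growth media at 48 and 96 h the H2B medians lay above 0 and those of H2A, H3, H4 and S phase genes below -1, and with nontargeting siRNA all 6 medians were below 0 in differentiation media.

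Several members share a promoter region with an H2A gene that is transcribed the other way. The starts of H2BC4 and H2AC6 were 246 bases apart, those of H2BC8 and H2AC8 233, of H2BC11 and H2AC11 248, of H2BC13 and H2AC13 244 and of H2BC7 and H2AC7 223. For H2BC5, H2BC6, H2BC9 and H2BC12 no H2A start was listed within 1000 bases. At 48 h in growth media each measured neighbour was lower with ZNF148 siRNA while its H2B partner was not over 2-fold different. H2AC6 differed by -1.28 beside 0.67 for H2BC4, and H2AC8 by -1.21 beside 0.71 for H2BC8. H2AC11 differed by -3.38 beside -0.05 for H2BC11. H2AC13 read at least 11.3-fold lower, since it was not well above background on any ZNF148 siRNA array, beside 0.28 for H2BC13. At 96 h in growth media H2AC13 read at least 29.6-fold lower beside 0.57 for H2BC13. H2AC11 differed by -5.35, with 1 of 3 ZNF148 siRNA arrays well above background. H2AC6 (-0.57) and H2AC8 (-0.84) were under 2-fold lower at that hour. H2AC7, the neighbour of the unmeasured H2BC7, differed by -1.35 at 48 h and -0.25 at 96 h. In differentiation media at 96 h H2AC6 (0.83) and H2AC8 (0.78) were higher, as their H2B partners were, while H2AC11 read at least 1.57-fold lower.

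**Figure D4:**
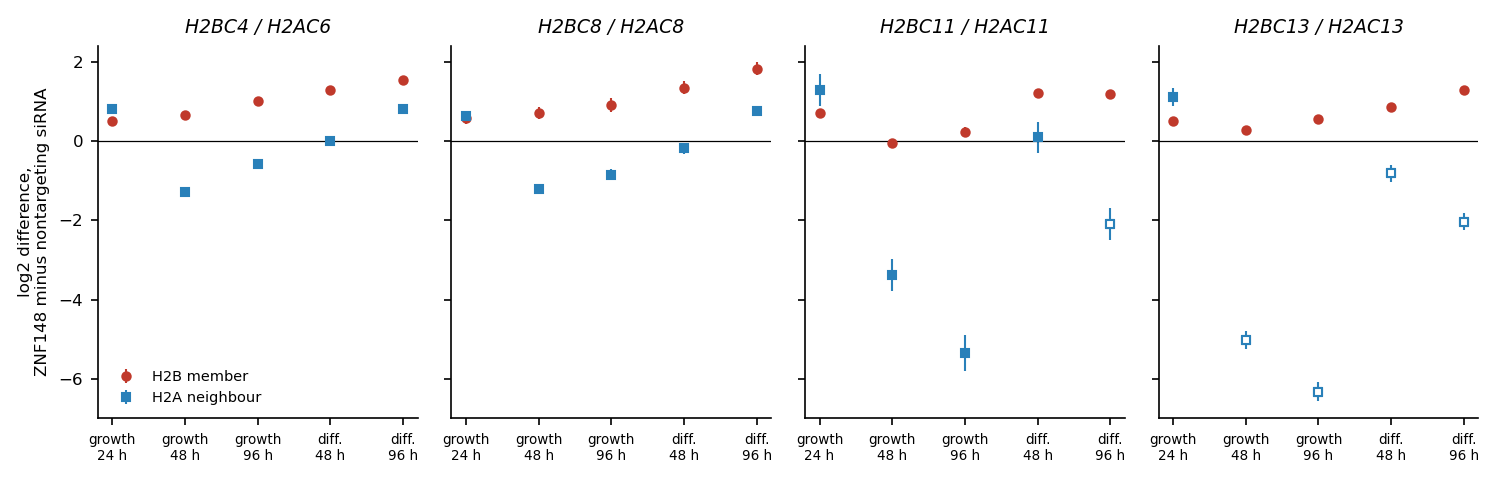
Log2 difference of ZNF148 siRNA minus nontargeting siRNA (vertical axis) for 4 members (circles) and the H2A gene transcribed from the other side of the same promoter region (squares), by media and hour. Bars are standard errors, and open squares mark comparisons with a group in which no array was well above background, where the plotted value is as measured and not a bound. At 48 and 96 h in growth media each H2A gene lay below its H2B partner.

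The effect of differentiation media was tested within each siRNA. The choice of the members named no media or time contrast, but it drew on signals of all 10 groups, so the adjusted p of media and time effects are given as values of the fit over all genes and not as independent support. With nontargeting siRNA the members fell in differentiation media. At 48 h 7 of the 8 members were lower at an adjusted p under 0.05, where 24.4% of all genes tested were lower and 25.4% higher, and at 96 h all 8 were lower, where 22.3% of all genes were lower and 21.5% higher. H2BC6 and H2BC11 at 48 h, and H2BC6 and H2BC8 at 96 h, fell by more than 2-fold, where 8.22% and 8.25% of all genes tested did (7.77% and 6.81% rose by more than 2-fold). The median differences were -0.62 and -0.77 for the 8 members and -2.25 and -1.87 for the S phase genes, of which 45 of 51 fell by more than 2-fold at each hour. In this comparison the members and the S phase genes thus moved to the same side.

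H2BC6 fell by 2.33 ± 0.25 (SE, 3 arrays per group, adjusted p = 1.23e-07) at 48 h, from 6.19, 6.74 and 6.73 to 3.67, 4.67 and 4.32, with 2 of 3 arrays in differentiation media well above background. H2BC11 fell by 1.22 ± 0.11 (SE, adjusted p = 4.32e-09), from 9.23, 9.46 and 9.35 to 8.23, 8.12 and 8.02. In both genes all arrays in differentiation media lay below all arrays in growth media. H2BC5 fell by 0.72 ± 0.07 (SE, adjusted p = 3.24e-08), and H2BC4, H2BC8, H2BC9 and H2BC13 by 0.52 to 0.65. H2BC12 was the exception: its brighter probe differed by 0.24 ± 0.22 (SE, adjusted p = 0.445), while its other probe fell by 0.66 ± 0.11 (SE, adjusted p = 4.81e-05). Without replicate 1 in differentiation media, which read lowest, the brighter probe of H2BC12 rose by 0.65 (adjusted p = 0.000405). Fitted with the arrays of this comparison alone, 4 rather than 7 members were lower at an adjusted p under 0.05, with the differences as above. Without nontargeting siRNA replicate 1 in growth media the same 7 members were lower at an adjusted p under 0.05, and H2BC6 and H2BC11 fell by 2.52 and 1.28.

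The probes of H2BC12 differed in the size of the siRNA difference in every condition but 24 h, and in its media effect at 48 h also in direction. In nontargeting siRNA cells at 48 h in differentiation media the brighter probe read 11.02, 12.04 and 12.45, the widest spread of this probe in any group. The other probe read 9.83, 10.16 and 10.40 on the same arrays, and H2BC8 read 7.40, 8.09 and 8.45, both in the same order. The mean centred level of the 7 clear members on these arrays ran from -1.11 to -0.60. Its standard deviation was 0.261, against 0.125 or less in the other groups. The 3 arrays were on 3 slides, and the median log2 signal of the muscle genes on them was 11.33, 10.65 and 9.88. The part of slide or of the muscle genes in this spread was not tested.

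At 96 h H2BC6 fell by 2.6 ± 0.28 (SE, adjusted p = 2.29e-07) and H2BC8 by 1.06 ± 0.18 (SE, adjusted p = 5.14e-05). H2BC8 read 8.61 and 8.68 in growth media and 7.53, 7.55 and 7.68 in differentiation media. H2BC11 fell by 0.91, H2BC12 by 0.8 on its brighter probe and 0.75 on the other, H2BC13 by 0.74, H2BC9 by 0.67, H2BC5 by 0.58 and H2BC4 by 0.36 ± 0.11 (SE, adjusted p = 0.0132). Both growth media arrays at 96 h were on slide 3, and no array of nontargeting siRNA at 96 h in differentiation media was, so that media and slide cannot be told apart within a slide for this comparison. With slide as a term in the fit 8 of 8 members were lower at an adjusted p under 0.05. Leaving out 1 array left 6 to 8: H2BC4 and H2BC12 did not pass without either growth media array, nor H2BC4 without replicate 1 in differentiation media.

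With ZNF148 siRNA 1 member passed the test between media at 48 h and none at 96 h. None of the 8 members passed 2-fold at 48 h, where 1.13% of all genes tested rose and 2.84% fell by more than 2-fold, or at 96 h, where 1.45% rose and 4.95% fell. H2BC5 rose at 48 h by 0.22 ± 0.07 (SE, adjusted p = 0.0404, from 0.0208 to 0.178 over the alternatives), and no other member passed an adjusted p of 0.05 at either hour, where 7.52% of all genes tested were higher and 11.6% lower at 48 h by that rule, and 10.2% and 18.3% at 96 h. The 95% intervals of the differences of H2BC4, H2BC5, H2BC9, H2BC11 and H2BC13 ran from -0.29 to 0.39 over both hours, and excluded a 2-fold fall in each case. The interval of H2BC12 on its brighter probe was -0.69 to 0.21 at 96 h and that of H2BC6 -0.72 to 0.34. S phase genes still moved under ZNF148 siRNA, with a median of -0.42 at 48 h and -0.43 at 96 h and 9 and 11 of 51 genes over 2-fold lower. The difference between the media effects of the siRNAs contains the comparisons that chose the members and was not tested.

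**Figure D5:**
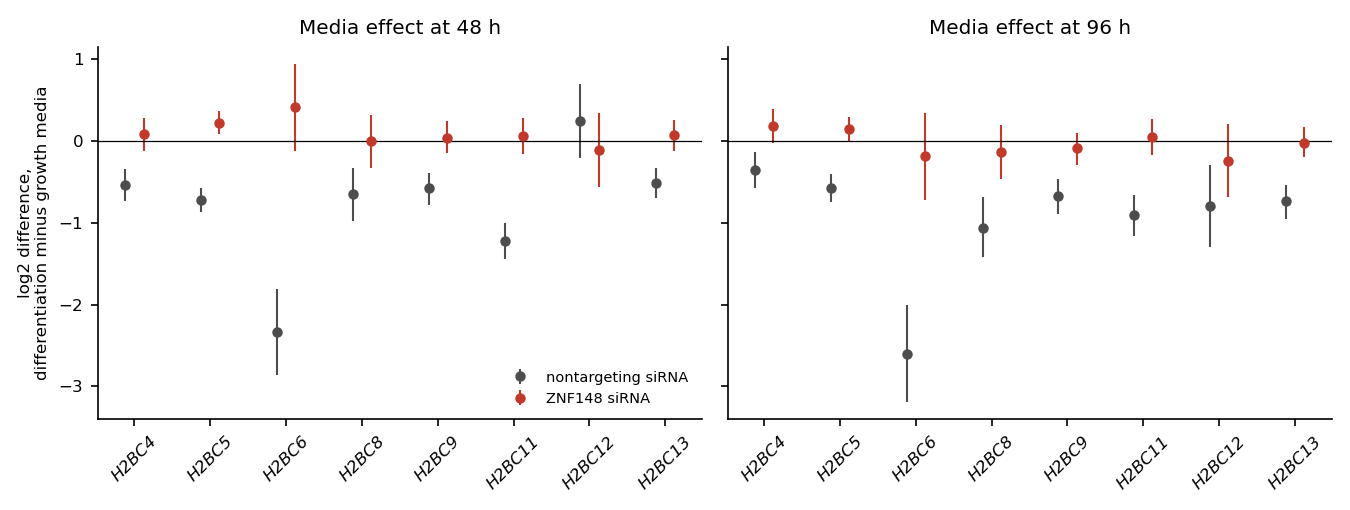
Log2 difference of differentiation minus growth media (vertical axis) for the 8 measured members at 48 h and 96 h, with nontargeting siRNA (grey) and ZNF148 siRNA (red). Bars are 95% intervals from the fit. With nontargeting siRNA 7 members at 48 h and 8 at 96 h lay below 0 with intervals that exclude it, and with ZNF148 siRNA the intervals included 0 for all but H2BC5 at 48 h.

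The H2A neighbours fell further in differentiation media with nontargeting siRNA. H2AC6 fell by 1.33 (adjusted p = 4.06e-10) at 48 h and 1.38 (adjusted p = 2.71e-09) at 96 h, beside 0.54 and 0.36 for H2BC4. H2AC8 fell by 1.11 and 1.42, beside 0.65 and 1.06 for H2BC8. Of the 12 clustered H2A genes 10 fell by more than 2-fold at 48 h and 11 at 96 h. The 5 other clustered H2B genes were all lower at an adjusted p under 0.05 at both hours, and H2BC3, H2BC10 and H2BC14 fell by more than 2-fold at 96 h, by 1.61, 1.09 and 1.25.

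Between 48 and 96 h, members rose in ZNF148 siRNA cells in both media. In each of these comparisons H2BC4, H2BC5, H2BC9, H2BC11 and H2BC13 were higher at 96 h at an adjusted p under 0.05, by 0.36 to 0.67, where 16.4% of all genes tested were higher and 20.4% lower in differentiation media, and 15.3% and 13.7% in growth media. H2BC11 rose most in both, by 0.67 ± 0.11 (SE, adjusted p = 4.71e-05 in differentiation and 6.05e-05 in growth media). In growth media it read 9.26, 9.38 and 9.24 at 48 h and 9.94 or more on each array at 96 h, without overlap. H2BC12 differed by 0.11 and 0.23 on its brighter probe, which did not pass, and rose by 0.39 and 0.4 on the other. H2BC8 (0.09 and 0.22) and H2BC6 (-0.17 and 0.43) did not pass. No member passed 2-fold, where 4.33% of all genes tested rose and 3.72% fell by more than 2-fold in differentiation media, and 4.13% and 1.82% in growth media. The S phase genes had medians of -0.25 and -0.17 in the same comparisons, and the H2A neighbours went both ways. H2AC6 and H2AC7 rose by more than 2-fold, by 1.12 and 1.54 in differentiation media and 1.05 and 1.51 in growth media, and H2AC8 rose by 1.12 and 0.84. H2AC11 fell by 1.55 (adjusted p = 0.00707) in growth media, with 1 of 3 arrays at 96 h well above background, and in differentiation media it was above background on 0 of 3 arrays at 96 h. H2AC13 was not well above background on any of these arrays.

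With nontargeting siRNA the members went separate ways with time. In differentiation media H2BC11 rose by 0.69 ± 0.11 (SE, adjusted p = 2.4e-05), H2BC5 by 0.36 and H2BC4 by 0.33, where 21.2% of all genes tested were higher and 21.4% lower at an adjusted p under 0.05. H2BC12 fell by 1.2 ± 0.22 (SE, adjusted p = 0.000141) on its brighter probe, from 11.02, 12.04 and 12.45 to 10.71, 10.56 and 10.64, where 4.22% of all genes tested fell and 5.76% rose by more than 2-fold. Its other probe differed by -0.04 ± 0.11 (SE, adjusted p = 0.845), so the fall rests on 1 probe and on the widely spread 48 h group. Without replicate 3 at 48 h the difference was -0.89. The change with time in differentiation media minus that in growth media was -1.04 ± 0.32 (SE, adjusted p = 0.0221) on the brighter probe of H2BC12. No other member passed an adjusted p of 0.05 in this contrast, where 16.5% of all genes tested were lower and 14.7% higher. With more than 2-fold as well, 5.23% of all genes tested fell and 4.8% rose. On the other probe of H2BC12 the difference between media was -0.1 ± 0.17 (SE, adjusted p = 0.764). Leaving out the array that stood apart, the brighter probe gave -1.21 (adjusted p = 0.00986). In growth media none of the 8 members passed an adjusted p of 0.05, where 1.9% of all genes tested were higher and 0.495% lower (0.402% and 0.0326% by more than 2-fold), and the largest difference was 0.48 in H2BC6 (adjusted p = 0.534). Without replicate 1 at 48 h none passed either, H2BC6 differed by 0.3, and the largest difference was 0.32 in H2BC11 (adjusted p = 0.217).

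Arrays at 24 h can be set beside those at 48 h in growth media only as values, since slide, scan and confluence changed together with the hour and cannot be told apart from it. With nontargeting siRNA the median difference of the 8 members, 24 minus 48 h, was 0.02, and 0 members were over 2-fold apart, where 4.09% of all genes tested were higher and 5.86% lower. H2BC12 was 0.59 higher at 24 h, H2BC8 0.34 and H2BC6 0.33, and the other 5 differed by 0.1 or less. Without replicate 1 at 48 h these differences were 0.75, 0.41 and 0.15, and the median was 0.07.

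The mean of the 7 clear members gave an order of the 10 groups, which single members such as H2BC11 and H2BC12 did not follow throughout. This mean centred level was highest with ZNF148 siRNA at 96 h in growth media (0.65 ± 0.04, SD, n = 3) and in differentiation media (0.63 ± 0.04, SD, n = 3), which did not differ beyond their spread. ZNF148 siRNA at 24 h in growth media (0.42 ± 0.125, SD, n = 3), 48 h in differentiation media (0.26 ± 0.06, SD, n = 3) and 48 h in growth media (0.21 ± 0.01, SD, n = 3) followed, and the latter pair overlapped. Below them lay nontargeting siRNA in growth media at 96 h (-0.12 ± 0.06, SD, n = 2), 24 h (-0.14 ± 0.05, SD, n = 3) and 48 h (-0.26 ± 0.1, SD, n = 3, with replicate 1 at -0.15 and the others at -0.28 and -0.35), with overlapping neighbours. Nontargeting siRNA in differentiation media was lowest, at -0.83 ± 0.26 (SD, n = 3) at 48 h and -0.85 ± 0.06 (SD, n = 3) at 96 h, which overlapped. The place of the 24 h groups among the other hours cannot be told apart from slide, scan and confluence. All 5 groups with ZNF148 siRNA stood above all 5 with nontargeting siRNA. This order is a description, since the members were chosen on signals of all 10 groups. It also leaves out H2BC6, which was not well above background on every array and was lower with ZNF148 siRNA at 48 and 96 h in growth media.

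The group means of these 7 members correlated with each other with Pearson r from 0.54 to 0.99 over 10 groups (21 pairs), and those of H2BC6 with each of them with r from -0.19 to 0.41. These are descriptions over groups that share arrays and slides. The 5 genes outside the histones whose group means were most like the mean centred profile of the 8 measured members were RADIL (Pearson r = 0.97 over 10 groups), PIGH (0.96), USP31 (0.951), GOLT1B (0.948) and RERG (0.948). Without H2BC6 in the profile PIGH (0.98) and RERG (0.951) were again among the 5, with MFHAS1, NEK7 and COBLL1.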

How the data were processed

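RNA of LHCN-M2 cells was labelled with Cy3 and hybridised to 1-colour Agilent arrays, 1 array per sample. The authors deposited intensity values per spot, linear and background-subtracted by Agilent Feature Extraction (10.7.3.1 in the file headers), and the scanner software's own test of each spot against background. The authors also deposited log2 values with the same distribution on each array, used as an alternative. Of the headers 14 name hg19 and the others no build, so genes were named through RefSeq accessions.

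Control spots (2075 of 62976) and outlier spots were left out, signals were log2-transformed, spots averaged for 58201 probes and quantile-normalized over 29 arrays in R 4.3.3, using limma (version 3.58.1) and the package data.table (version 1.17.8). A probe entered the test if at least 2 arrays had it well above background, which left 38714 probes for a two-sided limma test (lmFit, eBayes) in 1 fit of 10 group means. Of several tested probes, that with the highest mean stands for the gene. A change was called at a Benjamini-Hochberg adjusted p under 0.05 over all tested probes and more than 2-fold. For siRNA differences, over 2-fold without overlap of arrays replaced the test. A fold against a group not well above background is a bound, from the lowest signal well above background on each array. Between 41.5% and 56.5% of probes were well above background, and the number of arrays limits the precision. The fit was tested on simulated data.

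The named genes are the members by every probe, the other clustered H2B genes, the H2A neighbours, ZNF148, the 5 most alike genes and at most 4 examples of a list. POU2F1 and the most alike genes without H2BC6 were added. Members and lists were chosen with earlier results of these data known. Same-numbered replicates deviated together with correlations of -0.14 to 0.12, so the numbers were not taken as pairs. Alternatives were another scaling, normexp with an offset of 50, the authors' values, no filter or 6 arrays, probes averaged by gene, replicate or slide as a block, single slides, each array left out, the compared arrays only, centring on all probes and the methods' t-test.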

Additional observations from a re-analysis of the deposited data

Results flagged for a closer look

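The change of H2BC12 from 48 to 96 h with nontargeting siRNA differed between the media by a test of the difference itself. On its brighter probe the change in differentiation media minus that in growth media was -1.04 ± 0.32 (SE, adjusted p = 0.0221), and on its other probe -0.1 ± 0.17 (SE, adjusted p = 0.764). With the arrays of these 4 groups alone the brighter probe gave the same -1.04 with an adjusted p of 0.216.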

How the results depend on the processing

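No change past both thresholds (adjusted p and 2-fold) reversed: over members, tested comparisons and alternatives, 1432 values kept their side of these thresholds and 16 dropped below, 14 of them in the change of H2BC12 with time on nontargeting siRNA. Most of the 1432 were not past both thresholds as reported, and such values could not drop below them. By adjusted p alone, of 1384 values 42 lost the threshold and 13 gained it, and 33 changed sign, 1 of them with an adjusted p under 0.05: the nontargeting media effect of H2BC12 at 48 h, 0.24 on its brighter and -0.66 on its other probe. In that comparison 4 members were lower by adjusted p with the compared arrays alone and 3 with the methods' t-test after Benjamini-Hochberg, against 7, and at 96 h 7 with either, against 8. Scaling to the 75th percentile moved the median siRNA difference of the members to 0.65 at 24 h, 0.36 at 48 h in growth media and 1.35 at 96 h in differentiation media, and gave 1, 7 and 1 members over 2-fold higher at 24 h, at 48 h in differentiation media and at 96 h in growth media. Normexp correction gave medians of 0.27 at 48 h in growth media and 1.19 at 96 h in differentiation media. It gave 0 members lower at 48 h and 1 higher at 96 h in growth media. With nontargeting siRNA it left 1 member that fell in differentiation media at 48 h and 1 at 96 h. H2BC6 no longer passed 2-fold at 48 h, nor did H2BC8 at 96 h. At 48 h in growth media the median was 0.36 without replicate 1 of nontargeting siRNA, 0.36 after centring on the median of all tested probes, and 0.24 and 0.37 within slides 2 and 3. Within slides the median was 1.26 and 0.81 (slides 1 and 2) at 48 h in differentiation media and 1.32 (slide 2) at 96 h. With H2BC12 by its other probe, or probes averaged by gene, 0 members were over 2-fold higher at 48 h in growth media and 0 fell with time in differentiation media or in the difference between media. Its other probe, or slide as a block, also left 1 member higher at 96 h in growth media. With the compared arrays alone 0 members fell in either of these time contrasts, and with the methods' t-test after Benjamini-Hochberg 0 fell with time in differentiation media. Without a filter H2BC7 entered as the 1 member that fell with time in ZNF148 siRNA cells. The median of 24 against 48 h was 0.07 without that replicate 1 and 0.16 by the 75th percentile. The causes were not tested.

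Leaving out 1 array at a time gave siRNA medians of 0.27 to 0.36 at 48 h in growth media and 1.24 to 1.32 at 96 h in differentiation media, and -0.02 to 0.07 for 24 against 48 h. The count of members higher at 48 h in growth media ran from 0 to 1 (0 without nontargeting replicate 2) and at 96 h from 1 to 2 (1 without ZNF148 siRNA replicate 1). The count that fell with time in differentiation media ran from 0 to 1 (0 without nontargeting replicate 3 at 48 h). That of the difference between media ran from 0 to 1 as well: H2BC12 was lost without replicate 2 or 3 at 48 h in differentiation media, replicate 2 at 48 h or replicate 1 or 2 at 96 h in growth media, with adjusted p of 0.0544 to 0.0748. Same-numbered replicates were not taken as pairs. With the replicate block the siRNA medians were again 0.54, 0.31, 0.61, 1.05 and 1.27, and only H2BC5 at 48 h in the media effect of ZNF148 siRNA no longer passed an adjusted p of 0.05. Depth is not defined for arrays, and values of H2BC6 near background limit its differences in differentiation media.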
